A study of Mus musculus with 83 samples.

Results

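The inner membrane of the mitochondrion carries the respiratory chain. Complex I takes electrons from NADH, complex III passes them from ubiquinol to cytochrome c, and complex IV hands them to oxygen. All 3 complexes pump protons, and ATP synthase, also called complex V, makes ATP as protons flow back. Most subunits are encoded in the nucleus, and a small core is encoded in mitochondrial DNA. Brown fat is rich in mitochondria, and in it uncoupling protein 1 lets protons return without making ATP, so that the chain gives off heat.

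The genes described are the nuclear subunit genes of complexes I, III, IV and V, taken by symbol from a table of 11144 genes measured in cultured brown preadipocytes. Symbols starting with Ndufa, Ndufb, Ndufc, Ndufs or Ndufv and a digit, with Uqcr, with Cox4 to Cox8 or with Atp5 were kept. The isoform genes Ndufa4l2, Cox7a1 and Cox8b and the assembly factors were left out by the same rule. The prefixes took 74 symbols, of which Cox4nb was set aside because it encodes no subunit. The 73 members fell into 35 genes of complex I, 8 of complex III, 14 of complex IV and 16 of ATP synthase. Among the known nuclear genes with these symbols that had no value in the culture tables were Ndufb1, Ndufs6, Atp5g2, Cox7b2 and Cox8c. None of the 13 mitochondrially encoded subunits had a value in either kind of table, so the nuclear genes cannot be set beside them here. Ndufa4 was counted under complex I by its symbol, although its product is known as a subunit of complex IV. Cox7a2l, a supercomplex factor, and Atp5s and Atp5sl, relatives named after ATP synthase, also match the symbols without being standing subunits.

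The cells were preadipocytes from interscapular brown fat of newborn C57BL/6J mice with floxed Pparg alleles, made immortal with the SV40 large T antigen. Poly(A) RNA was sequenced while they proliferated (day -3) and at confluence (day 0), when insulin, T3, IBMX, dexamethasone and indomethacin were added to induce adipogenesis. It was sequenced again in immature adipocytes (day 2) and mature adipocytes (day 7). Brown adipose tissue from between the shoulder blades of C57BL/6J mice aged 16 weeks gave a further library. Each of these 5 groups is 1 library, so no difference has a replicate check, none was tested and no p-value is given.

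The markers of the labelled cell types were checked first. Adipoq, an adipocyte hormone, was at 0.234, 0.260, 142 and 590.4 FPKM (fragments scaled for gene length and library size) at days -3, 0, 2 and 7. Ucp1, which encodes uncoupling protein 1, was listed at 0 at days -3 and 0, and reached 0.0357 and 1.22 FPKM at days 2 and 7, against 1015 RPKM (the like unit, for reads) in the tissue. The day 7 culture thus held adipocyte transcripts with a low level of the defining brown fat transcript. The median gene of the whole table lay between 12.2 and 13.4 FPKM on all 4 days. The read depth of the culture libraries is unknown.

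Regulators known to act on genes of this kind are NRF1, the ETS factor GABP, YY1 and the estrogen-related receptors, so the promoters were searched for short letter runs typical of them. RefSeq promoters of assembly GRCm38.p6 matched 61 of the 73 members, each covering 250 bases before and 50 after the transcript start. The runs searched on both strands were GCGCATGC for NRF1, CCGGAAG for ETS factors, AAGATGGC for YY1 and TCAAGGTCA for estrogen-related receptors. Printed here, 5′ to 3′ and with these runs in capitals, are 250 bases before and 30 after the start of the members with the highest day 7 level that hold the NRF1, ETS and estrogen-related receptor runs. All 3 genes lie on the minus strand, Cox6a1 at chr5:115348929-115349208, Cox8a at chr19:7217587-7217866 and Atp5g3 at chr2:73911297-73911576.
Cox6a1: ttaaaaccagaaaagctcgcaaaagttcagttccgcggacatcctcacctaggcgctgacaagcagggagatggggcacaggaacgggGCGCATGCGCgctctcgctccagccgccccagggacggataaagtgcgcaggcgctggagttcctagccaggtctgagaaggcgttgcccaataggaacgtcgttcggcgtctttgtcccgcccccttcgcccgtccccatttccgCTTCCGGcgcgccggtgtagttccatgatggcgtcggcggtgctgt
Cox8a: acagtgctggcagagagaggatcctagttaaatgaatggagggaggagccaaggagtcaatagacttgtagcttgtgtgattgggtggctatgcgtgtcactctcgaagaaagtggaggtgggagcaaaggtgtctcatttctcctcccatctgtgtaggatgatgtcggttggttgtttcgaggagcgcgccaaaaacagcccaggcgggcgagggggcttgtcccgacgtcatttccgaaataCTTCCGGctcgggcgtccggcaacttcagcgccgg
Atp5g3: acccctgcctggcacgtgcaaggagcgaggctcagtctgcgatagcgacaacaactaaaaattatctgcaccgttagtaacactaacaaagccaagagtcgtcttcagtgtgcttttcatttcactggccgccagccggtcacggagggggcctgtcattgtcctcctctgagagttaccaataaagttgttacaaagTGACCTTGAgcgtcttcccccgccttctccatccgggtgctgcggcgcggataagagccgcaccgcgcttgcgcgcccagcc

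In the Cox6a1 promoter the NRF1 run reads on both strands, the matches overlap, and the first begins 162 bases before the start. The ETS run there lies on the other strand, 16 bases before the start. In the Cox8a promoter an ETS run begins 5 bases before the start, and another begins 33 bases after it, beyond the printed bases. In Atp5g3 the estrogen-related receptor run begins 52 bases before the start. These runs of Cox8a and Atp5g3 also lie on the other strand. NRF1 letters were in 8 of 61 member promoters (13.1%), against 6.23% of 8890 promoters of genes in the culture tables and 3.05% of all 27025 promoters. ETS letters were in 14 (23.0%), against 20.4% and 9.93%, and the estrogen-related receptor letters in 1 (1.64%), against 0.281% and 0.466%. At least 1 of the 4 runs was in 28 member promoters (45.9%), against 29.0% and 15.3%. Such a match is a run of letters, and no binding was measured here.

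YY1 letters were in 10 member promoters (16.4%), 6 of complex I and 4 of ATP synthase, against 5.24% of genes in the culture tables and 3.19% of all. The matches are shown with up to 11 bases on either side, on the strand where they read as spelled, because most sit at nearly the same place.
Ndufc1: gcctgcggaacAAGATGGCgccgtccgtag
Ndufa3: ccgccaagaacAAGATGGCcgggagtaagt
Atp5j2: accaggacttcAAGATGGCgtcactcggtg
Ndufs7: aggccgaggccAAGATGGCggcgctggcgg
Atp5sl: cgttacctggcAAGATGGCggcgcccagag
Ndufa9: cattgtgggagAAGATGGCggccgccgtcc
Ndufs4: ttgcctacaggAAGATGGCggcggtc
Ndufb8: cggagaaggtgAAGATGGCtgcc
Atp5f1: ggggcaggagcAAGATGGCcgctcgcacat
Atp5j: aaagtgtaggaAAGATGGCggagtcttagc

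In 8 of these 10 genes the letters began 23 to 39 bases after the transcript start, in the order shown. For Atp5sl a second RefSeq start puts the same letters 53 bases before it. Atp5f1 has them from 3 bases before the start on the opposite strand, and Atp5j from 88 bases before it. The letters contain ATG, the start codon, so a match after the transcript start can also be where the coding sequence begins. Which of the matches are start codons was not tested.

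Subunit genes were among the abundant transcripts of the culture at every time. In the order of the days their median was 58.8, 58.0, 86.4 and 141 FPKM. At day 7 their median lay above 97.1% of all genes, and 44 of 73 were at 100 FPKM or more, as were 530 of all 11144 genes. Together the 73 genes held 1.84, 1.93, 2.64 and 4.46% of the summed FPKM of the 4 libraries. At day 7 ATP synthase held 1.42%, complex I 1.37%, complex IV 1.17% and complex III 0.500%.

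**Figure D1:**
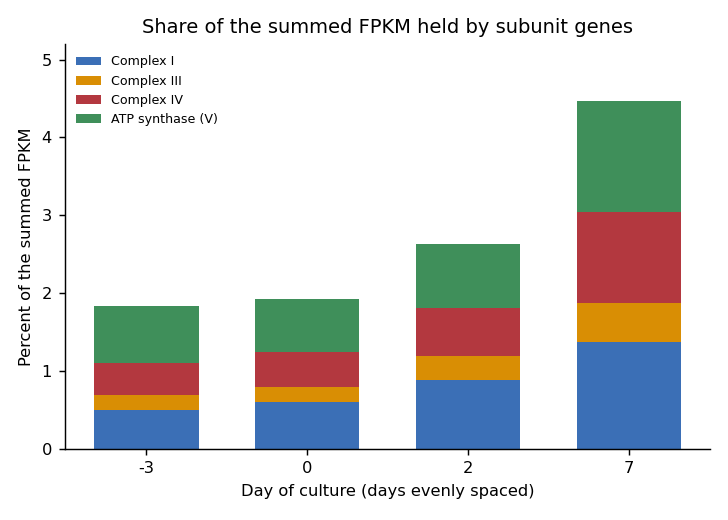
Percent of the summed FPKM of each culture library held by the subunit genes, stacked by complex, at days -3, 0, 2 and 7 (evenly spaced, 1 library each). The stacks reach 1.84, 1.93, 2.64 and 4.46% in that order.

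Levels among the members counted under a complex ranged widely. Complex I members ran from 7.00 FPKM (Ndufb4) to 540.0 (Ndufb9) at day 7, and complex III members from 44.1 (Uqcrb) to 397 (Uqcrq). Complex IV members ran from 1.55 (Cox6b2) to 1012 (Cox4i1), and ATP synthase members from 5.62 (Atp5s) to 1903 (Atp5b). Of these low ends, Cox6b2 is a tissue-restricted isoform and Atp5s no standing subunit. Without restricted isoforms the lowest complex IV member was Cox7c, at 47.6 FPKM. Atp5l, a membrane subunit of ATP synthase, was at 6.93. The order of the members changed little in culture, with a Spearman rank correlation across the 73 genes of 0.93 between day -3 and day 7. Those points share their libraries and gene models, and genes are not replicates. Some low values concern genes with near-identical copies. The RefSeq table names pseudogenes or close relatives of Atp5l, Ndufb4, Ndufa11 and Ndufa12, among others, and the sources used here do not say how shared reads were counted.

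**Figure D2:**
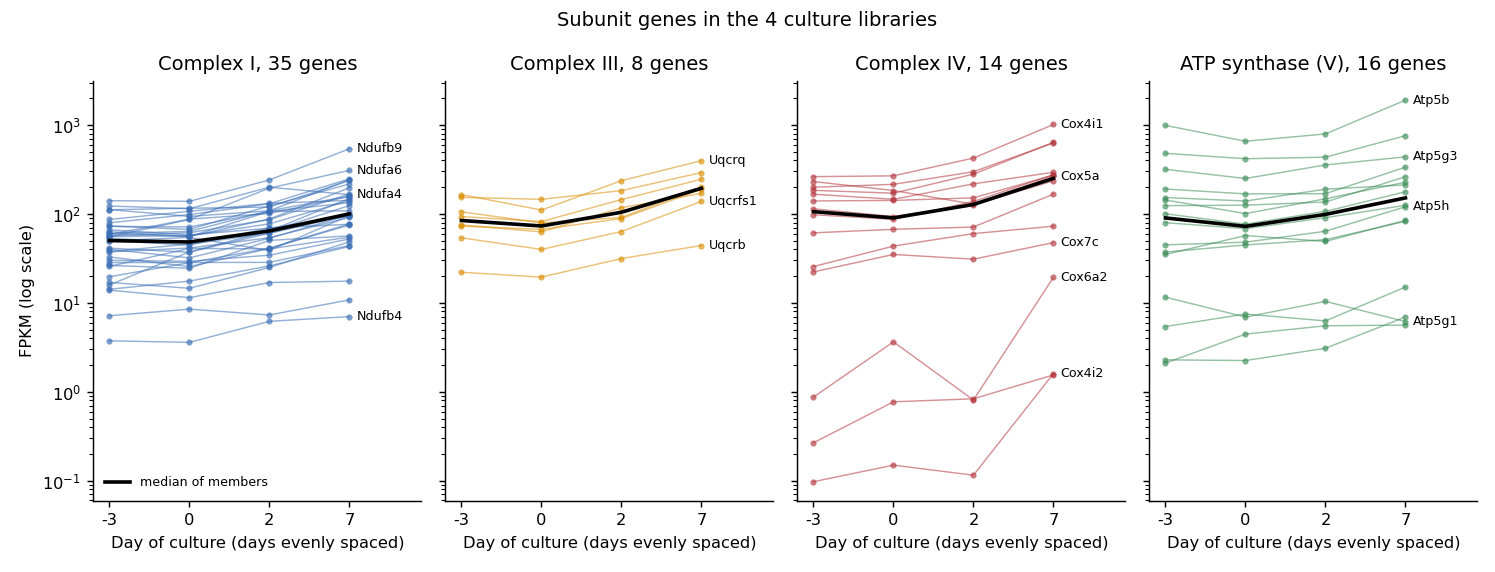
FPKM on a log scale of every subunit gene at days -3, 0, 2 and 7, 1 panel per complex, with the median of the members in black (days evenly spaced, 1 library each, selected genes named). Medians end higher at day 7 than at day -3 in all 4 panels, and Cox6a2 goes from 0.872 to 19.4 FPKM.

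Differences between days are given as differences of log2(FPKM + 1), which understates the change of low genes. A gene counts as higher or lower here where that difference reached 1, a 2-fold change on this scale, with the larger value at 1 FPKM or more. From proliferation to confluence the subunit genes hardly differed. Of 71 members compared, 2 were higher (11.3% of all genes were) and 0 lower (5.43% of all genes), with a median difference of -0.07 against 0.06 for all genes. Cox4i2 and Cox6b2, below 1 FPKM on both days, were not compared. The 2 higher members were Ndufv3, an accessory subunit of the NADH-oxidising arm of complex I, and Cox6a2, the heart and muscle isoform of a complex IV subunit. Complex III had the lowest median, -0.22, with all 8 members below their day -3 level. The sign of such small differences rested on the scaling. With each library scaled to 1 common total, which raised the median of all genes by 0.22, the median of the members was 0.14, that of complex III -0.02, and 4 of its 8 members were below day -3. Another scaling, by median-ratio factors, gave a median of -0.15 for the members and -0.30 for complex III, with all 8 of its members below day -3. Uqcrq was at 165 and 110 FPKM on these days and Uqcrc1 at 105 and 79.3. Atp5b, the catalytic beta subunit of ATP synthase, was at 988 and 656 FPKM.

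From day 0 to day 2, as the cells were induced, small differences upwards were common. Here 63 of 71 members were above 0, with a median difference of 0.44 against -0.01 for all genes, of which 49.1% were above 0. Few passed 2-fold: 3 were higher, against 6.18% of all genes, and 1 was lower, against 10.7%. The 3 higher members were Ndufa6 and Ndufc1, accessory subunits of complex I, and Uqcrq, a small subunit of complex III. The lower one was Cox6a2, at 3.64 FPKM at day 0 and 0.808 at day 2. By complex the medians were 0.53 for complex I, 0.66 for complex III, 0.45 for complex IV and 0.30 for ATP synthase.

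From day 2 to day 7, between immature and mature adipocytes, nearly every subunit gene was higher. Of 73 members 71 were above 0, as were 51.4% of all genes. The 2-fold rule counted 18 higher, a share of 24.7% where all genes gave 9.62%, and 0 lower, where all genes gave 5.14%. Cox4i2, Cox6a2 and Cox6b2 were below 1 FPKM at day 2, so they could not be counted lower. Of these, Cox4i2 and Cox6a2 are among the 18. The median difference was 0.76 against 0.02 for all genes. The members moved within a narrow band, the middle 50% of them between 0.47 and 0.99, so that most fell short of 2-fold while going the same way. Each library is a bulk sample, in which more adipocytes and more RNA per adipocyte cannot be told apart. Marker genes of adipocytes moved over the same interval: of 6 fixed ones, 4 were higher by the 2-fold rule and 0 lower, with a median of 1.25 and a summed level of 6868 FPKM at day 2 and 6262 at day 7. Preadipocyte markers went the other way, with 3 of 4 lower, a median of -1.39 and a sum of 116 and 47.7 FPKM. Their part in the subunit result was not tested.

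Complex IV held the most members past 2-fold at this step, 8 of 14, against 5 of 35 in complex I, 3 of 8 in complex III and 2 of 16 in ATP synthase. Among the 8 were Cox4i2 and Cox6a2, at 0.115 and 0.808 FPKM at day 2. They were compared through their day 7 level alone and could not be counted lower. The complex IV median was 1.02, where the others were at 0.71, 0.75 and 0.75. These complexes share the libraries and the members are not replicates, so the difference between complexes was not tested.

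**Figure D3:**
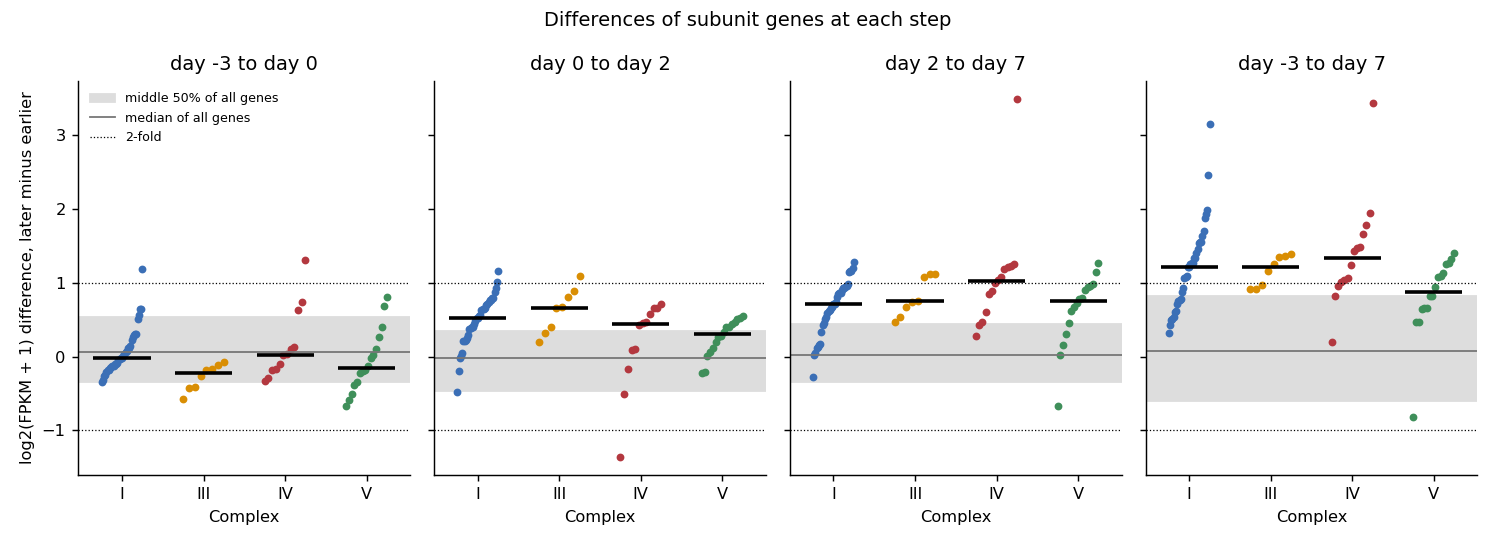
Differences of log2(FPKM + 1), later minus earlier day, of each subunit gene by complex at 4 steps, with the median of each complex as a black bar, the middle 50% of all genes in grey and 2-fold as dotted lines. From day 2 to day 7 the complex medians lie between 0.71 and 1.02, above the grey band. Complex IV has 8 of 14 points at or past 2-fold, where 9.62% of all genes are.

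Over the whole course from day -3 to day 7, 45 of 73 members were higher, where 20.3% of all genes were. None was lower, where 14.7% of all genes were. The median difference was 1.13 against 0.07. By complex the counts were 22 of 35 for complex I, 5 of 8 for complex III, 11 of 14 for complex IV and 7 of 16 for ATP synthase. The medians were 1.21, 1.21, 1.34 and 0.88. Cox4i2, Cox6a2 and Cox6b2, all counted in complex IV, were below 1 FPKM at day -3, so they could not be counted lower. Each is among the 45 members and the 11 of complex IV counted higher, and each was compared through its day 7 level alone. The highest of the 4 values was at day 7 for 71 of 73 members, while this held for 32.7% of all genes. The exceptions were Ndufa4, highest at day 2, and Atp5g1, highest at day -3. The lowest value was at day 0 for 39 members, among them all 8 of complex III, and at day -3 for 30. With the common total day 7 was still the highest for 68 members, while day 0 was the lowest for 15, with 4 of complex III, and day -3 for 55. Median-ratio factors instead put day 0 lowest for 46 members, with all 8 of complex III, and day -3 for 22. Levels increased from day 0 through day 2 to day 7 in 62 members (84.9%), against 22.8% of all genes. Between the day 2 level and the day 2 to day 7 difference, the Spearman rank correlation was 0.13 over the 73 genes and -0.30 over all genes compared. The day 2 value is part of that difference, so these quantities are not independent.

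In complex I the 7 core subunits, which carry the flavin and iron-sulfur clusters that move electrons, had a median day 2 to day 7 difference of 0.92, with 3 of 7 past 2-fold. The 28 accessory members had a median of 0.64, with 2 past 2-fold. Both counts stand beside 9.62% of all genes higher at this step. Ndufs8, a core subunit with iron-sulfur clusters, was at 49.9, 54.4, 38.8 and 95.9 FPKM at days -3, 0, 2 and 7. Its day 2 to day 7 difference of 1.28 was the largest of the complex and started from the lowest of its 4 values. Ndufv1, the flavin-bearing subunit that binds NADH, was at 60.2, 63.6, 108 and 242 FPKM, and differed by 1.15 at that step.

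Among the accessory members Ndufv3 had the largest difference over the whole course. It was at 15.9, 37.4, 64.4 and 149 FPKM, higher at each time than at the one before, which gave a difference of 3.15. Ndufa6 followed at 55.2, 86.5, 195 and 309 FPKM and a difference of 2.46, most of it gained by day 2. Ndufb9, the most abundant member of complex I, was at 141, 138, 241 and 540.0 FPKM. Other members hardly moved after day 2: Ndufa7 had 107 FPKM at day 2 and 108 at day 7. Ndufa4 was lower at day 7, at 123, 114, 200 and 165 FPKM in the order of the days. It was the one gene counted under complex I below 0 at the last step, by -0.28, although its product is known as a subunit of complex IV.

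In complex III the 2 core proteins, Uqcrc1 and Uqcrc2, and the Rieske iron-sulfur protein, Uqcrfs1, were all past 2-fold from day 2 to day 7. Their differences were 1.12, 1.08 and 1.11, and the rule counted 9.62% of all genes higher at that step. Uqcrc1 was at 105, 79.3, 91.3 and 200 FPKM over the 4 days and Uqcrfs1 at 53.8, 39.9, 63.4 and 138. Both were lowest at confluence and highest at day 7. None of the 5 small subunits passed 2-fold at that step, and their median was 0.67. Between day 0 and day 2 the order was the other way round, with medians of 0.81 for the small subunits and 0.40 for the 3 others. Uqcrq went from 110 FPKM at day 0 to 237 at day 2 and 397 at day 7, and Uqcr10 from 146 to 183 and 292. The smallest last-step differences were those of Uqcrb, at 31.5 and 44.1 FPKM, and Uqcr11, at 117 and 170.0.

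In complex IV the widely expressed isoforms carried most of the transcript. Cox4i1, a nuclear subunit of the enzyme, was at 262, 268, 424 and 1012 FPKM. Cox8a was at 184, 171, 280 and 637 FPKM, and Cox6a1 at 199, 215, 298 and 630.3. All 3 were at least 2-fold higher at day 7 than at day 2. Cox5a differed from these, since it was at 231, 183, 129 and 266 FPKM. Its lowest value was at day 2, so that it passed 2-fold at the last step while standing only 0.20 above day -3. Cox7a2l, at 60.0 and 72.7 FPKM, and Cox7b, at 218 and 294, had the smallest last-step differences.

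Tissue-restricted isoforms among the members were far below their partners. Cox6a2 was at 0.872, 3.64, 0.808 and 19.4 FPKM, the largest member difference from day 2 to day 7 at 3.49, and at day 7 Cox6a1 was at 630.3 FPKM. Cox4i2, known for lung and for low oxygen, was at 0.0975, 0.150, 0.115 and 1.60 FPKM. Cox6b2, known from testis, was at 0.267, 0.771, 0.834 and 1.55. Cox7b2 and Cox8c were listed at 0 in the tissue.

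The 3 isoform genes outside the symbol rule were left out with their pattern known, so their values are a description. From day 2 to day 7 Ndufa4l2 differed by 5.93, Cox7a1 by 5.69 and Cox8b by 2.34, where Cox6a2 had the largest member difference. Cox7a1, the heart and muscle partner of Cox7a2 that brown fat also makes, was at 0.220, 1.96, 1.59 and 132 FPKM, while Cox7a2 was at 114, 93.4, 126 and 236. Ndufa4l2, a relative of Ndufa4 known to respond to low oxygen, was at 0.144, 0.220, 0.911 and 115 FPKM. Cox8b was at 0.0738, 0, 0.0667 and 4.38 FPKM, below its partner Cox8a throughout the culture. In the tissue Cox8b was at 956 RPKM and Cox8a at 514, Cox7a1 at 300 and Cox7a2 at 385, and Ndufa4l2 at 4.66 and Ndufa4 at 455.

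**Figure D4:**
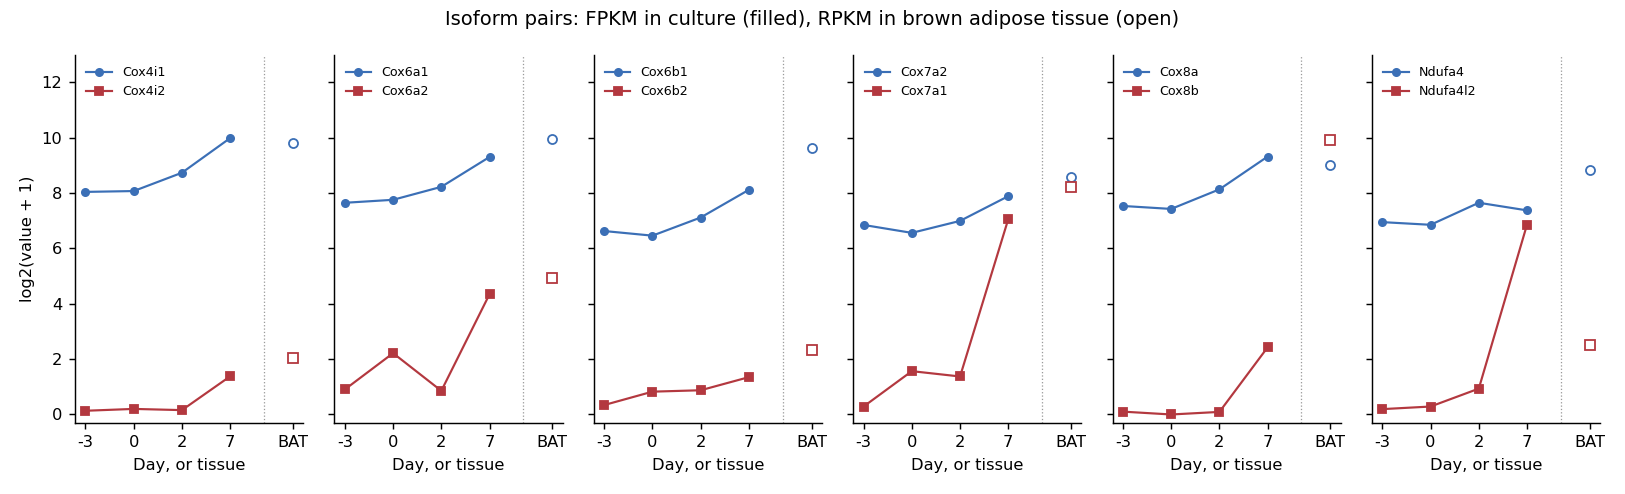
log2(value + 1) of 6 isoform pairs, as FPKM in the 4 culture libraries (filled, days evenly spaced) and as RPKM in brown adipose tissue (BAT, open), with the widely expressed partner in blue and the restricted one in red. The red genes are below the blue ones at every culture time, and in the tissue Cox8b is above Cox8a, at 956 and 514 RPKM.

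In ATP synthase the catalytic F1 head had the highest levels. Atp5b was at 988, 656, 793 and 1903 FPKM and Atp5a1, the alpha subunit, at 480, 417, 435 and 757. Both were lowest at confluence as deposited, though Atp5a1 was level with day -3 (0.01) under the common total. At the last step Atp5b differed by 1.26 and Atp5a1 by 0.80. The 5 F1 members had a median of 0.94 at that step, with 1 past 2-fold. The 4 members of the peripheral stalk, which holds the head in place, had a median of 0.59 with 0 past 2-fold. The 3 other membrane members had a median of 0.77 and also 0 past 2-fold. Over all genes, 9.62% were higher by this rule at that step. Atp5sl was past 2-fold, at 6.26 and 15.1 FPKM, and Atp5s was at 5.52 and 5.62.

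The c ring, which turns as protons pass, is encoded by 3 genes whose mature proteins are the same. Atp5g3 was at 317, 250.1, 355 and 438 FPKM. Atp5g1 was at 11.6, 6.92, 10.4 and 6.16 FPKM, the one member lower at day 7 than at day -3, by -0.81 and short of 2-fold. Atp5g3 thus made up most of the c ring transcript measured in culture at every time. Atp5g2 had no culture value and was at 0.289 RPKM in the tissue.

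Genes of the same pathway outside the symbol rule were read from lists. The 4 subunits of complex II, which feeds electrons from succinate into the chain, had a median difference of 1.35 from day -3 to day 7. All 4 were higher by the 2-fold rule, where 20.3% of all genes were. Sdha was at 95.6, 111, 125 and 284 FPKM and Sdhb at 72.4, 59.6, 82.2 and 172, and both passed 2-fold from day 2 to day 7. Sdhd, a membrane anchor, was at 105 and 185 FPKM at that step. Of 6 carriers and other subunits, Cycs alone, which encodes cytochrome c, passed 2-fold from day 2 to day 7, at 2.98 and 8.47 FPKM. The same rule counted 9.62% of all genes higher at this step. Cyc1, the cytochrome c1 subunit of complex III, was at 222, 136, 253 and 471 FPKM. Atpif1, the inhibitor of ATP synthase, was at 69.3, 106, 78.1 and 84.4.

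Assembly factors, which build the complexes without staying in them, moved less from day 2 to day 7. At this step 9.62% of all genes were higher and 5.14% lower. Of 12 for complex I, 1 was higher, Ndufaf3 at 4.97 and 17.5 FPKM, and the median was 0.22. For complexes III, IV and V, 0 of 5, 0 of 18 and 0 of 3 were higher, and the medians were 0.09, 0.07 and 0.09. Lyrm7, which guards the Rieske protein before its insertion, was at 3.75 and 6.72 FPKM on these days. Fam36a, an older symbol of the complex IV factor Cox20, was at 7.45 and 13.3, and Atpaf2, a chaperone of the ATP synthase alpha subunit, at 41.0 and 55.1. Mitochondrial ribosomal proteins, which make the mitochondrially encoded subunits, were close to the median of all genes at this step. Of 74, 1 was higher and 0 lower, with a median of 0.02, and from day -3 to day 7 the median was 0.03. Their summed FPKM was 2749 at day -3 and 2725 at day 7, while that of the subunit members was 6777 and 14942.

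Of 14 regulators of mitochondrial genes with values, 1 was higher and 1 lower from day 2 to day 7. Over all genes 9.62% were higher and 5.14% lower, so these counts set the regulators little apart. Ppargc1b, a coactivator of this programme, was at 0.924, 0.761, 12.7 and 42.3 FPKM. Its relative Pprc1 was at 83.0, 35.2, 35.7 and 15.7. Esrra, the estrogen-related receptor alpha, was at 19.4, 13.3, 24.1 and 45.6 FPKM, a last-step difference of 0.89. Nrf1, Gabpa and Yy1 differed by 0.60, 0.68 and 0.19 at that step. Ppargc1a, the coactivator best known in brown fat, had no culture value and was at 15.2 RPKM in the tissue.

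Brown adipose tissue and the day 7 culture were processed differently, so each gene was read against all genes they share. The difference log2(RPKM + 1) minus log2(FPKM + 1) had a median of -1.23 over 10467 shared genes, and this shift was subtracted. On that scale 58 of 73 members were at least 2-fold higher in the tissue, against 17.3% of all shared genes, and 1 was lower, against 16.9%. The median of the members was 1.66. By complex the medians were 1.66, 1.76, 1.85 and 1.23 for complexes I, III, IV and V, and all 8 members of complex III were counted higher. Without any centring, 49 members still had an RPKM above their day 7 FPKM, as did 1396 of the 10467 genes. The members' median was 141 FPKM in culture and 160 RPKM in the tissue, and 62 of 73 ranked higher among the shared genes in the tissue. The order of the members was largely kept, with a Spearman rank correlation of 0.85 across the 73 genes between day 7 and tissue and 0.68 across all shared genes.

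The largest centred differences were 3.32 for Ndufa12, an accessory subunit of complex I (17.5 FPKM and 78.0 RPKM), 3.00 for Uqcrb (44.1 and 153), and 2.85 for Atp5j2, a membrane subunit of ATP synthase (82.7 and 257). At the other end, Atp5g1 was at 6.16 FPKM and 0.232 RPKM, a centred difference of -1.31, and 3 reads on 1 kb were worth an estimated 0.561 RPKM in the tissue library. Atp5g3 was at 438 FPKM and 127 RPKM (-0.55), and Atp5j, of the peripheral stalk, at 212 and 95.0 (0.08). On the centred scale both measured c ring genes were thus placed lower in the tissue. Atp5g1 lay below the 3-read value there, and the handling of any shared reads is unknown, so a low true level was not shown. The F1 genes Atp5b and Atp5a1, at 1411 and 765 RPKM, were placed higher on that scale, by 0.80 and 1.25. By rank among the shared genes these F1 genes were not higher. Atp5b was at percentile 99.95 at day 7 and 99.94 in the tissue, and Atp5a1 at 99.83 and 99.82.

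The tissue library held transcripts of other cell types. All 6 skeletal muscle markers had values, from 17.1 to 534 RPKM with a sum of 1185, and of these Acta1 alone had a culture value, 1.14 FPKM at day 7. Endothelial markers (4 of 4) were at 10.6 to 51.4 RPKM, macrophage markers (3 of 4) at 1.04 to 19.6 and erythroid markers (2 of 3) at 5.29 to 88.0. Muscle is itself rich in respiratory chain transcripts. The part of these cells in the tissue result was not tested. Brown adipocyte markers also stood higher in the tissue, Cidea at 1164 RPKM against 8.81 FPKM at day 7.

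**Figure D5:**
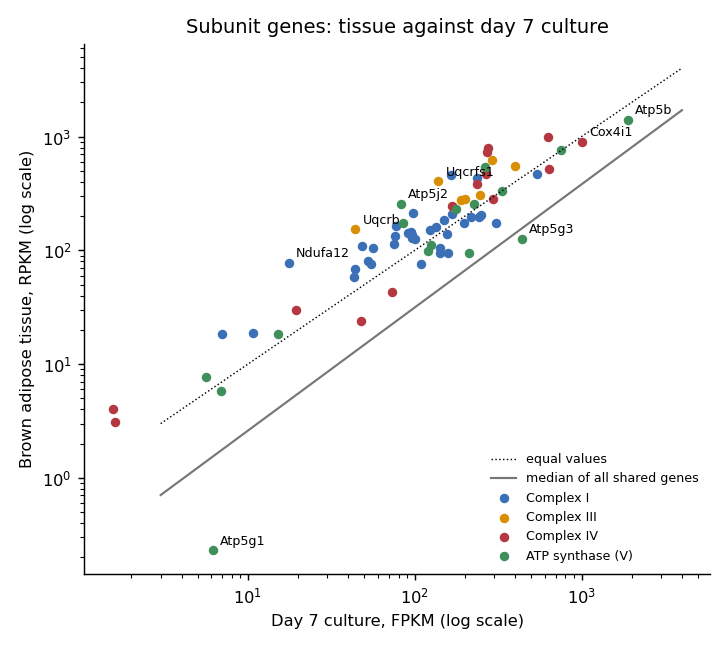
Level of each subunit gene in brown adipose tissue (RPKM, log scale) against the day 7 culture (FPKM, log scale), coloured by complex, with the line of equal values dotted and the position of the median shared gene in grey. Members lie above the grey line except Atp5g1 at 0.232 RPKM and Atp5g3 at 127 RPKM.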

How the data were processed

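The genes and lists described were chosen with earlier results of these data known. Of 83 samples in the series, 5 with processed RNA tables were used; the others, chromatin libraries and their inputs, were not analysed here. The culture values are FPKM per gene symbol, as the authors deposited them, 1 library per day. Every gene listed reached at least 1.00 FPKM in 1 of the 4 libraries, and the sources used here do not say why others are missing. For the tissue, the values are RPKM of 29082 RefSeq transcripts, as the authors deposited them. The submitters' processing notes name build mm9 and, for the culture, TopHat2 2.0.10, Cufflinks 1.0.3, CASAVA 1.8.2 and SICER, and CASAVA alone for the tissue. Their roles and the annotation are not given in the sources used here.

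Symbols were matched to tissue transcripts by RefSeq accession (28436 matched), and each gene took its highest transcript. The names and promoters are RefSeq's for GRCm38.p6, another build than mm9, and no coordinate of one was used with the other. Values were used as deposited, since median-ratio factors of the culture libraries departed from 1 by at most 4.09%. In the culture, at most 4.65% of low genes shared 1 ratio, so depth was not recovered. In the tissue, 1 read on 1 kb was worth an estimated 0.187 RPKM, the value that 30 of 43 chemosensory receptor transcripts held. With 1 library per group the 2-fold rule is a rule of size and no test. Named were, per complex, the 2 highest members at day 7 and the 2 largest and 2 smallest day 2 to day 7 differences. So were isoform sets, members counted lower, the 3 extremes each way in the tissue and the 3 extremes of each neighbouring list. Ndufv1, Ndufc1, Uqcrc2, Cox5a, Atpif1, Nrf1, Gabpa, Yy1 and Ppargc1a were chosen after their values were seen, and not every gene the rule takes is printed. Python 3.11.15, pandas 2.3.3, numpy 2.4.6, scipy 1.17.1 and matplotlib 3.10.9 were used.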

Additional observations from a re-analysis of the deposited data

How the results depend on the processing

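No paired analysis was possible because each group holds 1 library, and for the same reason no replicate could be left out. The 1 median over all members whose sign turned was that from day -3 to day 0, -0.07 as deposited and 0.14 with each culture library scaled to 1 common total. With a pseudocount of 5, members higher from day -3 to day 0 numbered 1, lower from day 0 to day 2 numbered 0, the day -3 to day 7 median was 1.01 and the tissue median 1.18 with 0 lower. With a larger value of at least 10 required, the first 2 counts were also 1 and 0, and the tissue median was 1.88 with 0 lower. With a 1.5-fold rule, 8 were higher and 2 lower from day -3 to day 0, 23 higher from day 0 to day 2, 51 higher and 1 lower from day 2 to day 7, and 1 lower from day -3 to day 7. The common total gave a median of 1.36 from day -3 to day 7. The tissue median was 1.90 with a pseudocount of 0.1 and 1.5 with transcripts summed per gene. Without centring it was 0.43, with 14 higher and 3 lower. The shares of all genes also change under such alternatives, the 1.5-fold rule among them, and are not printed here. These counts thus have no background beside them and are not set against the 2-fold shares given earlier. Centring on genes at 100 FPKM or more, an alternative chosen after seeing the data, gave 2.02 with 0 lower. Counting Cox4nb as a member was also chosen after seeing the data, and moved no count by over 1.5 times. Of 1706 values of single genes under alternatives, 204 moved by 0.1 or more, and 35 changed sign, 24 of them from day -3 to day 0 under the common total. None of the 35 was larger than 0.20 as deposited. The unknown culture depth limits what can be said of Cox4i2, Cox6b2 and other low genes.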
